A study of Mus musculus with 12 samples.

Results

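Connexins are the proteins of gap junctions, the channels that join the cytoplasm of neighbouring cells and carry current from cardiomyocyte to cardiomyocyte. Which connexins a cell makes sets how its junctions conduct, and the fast ventricular conduction system, ending in the Purkinje cells (PCs), is known for *Gja5* (Cx40), whereas the working ventricular myocytes (VMs) rely on *Gja1* (Cx43). The 6 genes described here are *Gja1*, *Gja3* (Cx46), *Gja4* (Cx37), *Gja5*, *Gjc1* (Cx45) and *Gjd3*, the last encoding the small connexin known from the cardiac nodes. They were chosen by name as the gap junction genes described for heart and its vessels, and are 6 of the 48526 genes in each file of counts.

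The libraries came from sorted cells of adult male mice. WT and KO mice, the latter homozygous for a disrupted *Ncam-1*, a line kept on C57BL/6, were crossed with a *Cntn2*-EGFP reporter line kept on CD1, a BAC transgene in which *Cntn2* sequences drive EGFP. All 4 groups therefore carried the reporter, and all cells were incubated for 15 minutes with 50 nM TMRM, a mitochondrial dye that marks cardiomyocytes. GFP-positive cells were taken as PCs and GFP-negative cells as VMs, which gave 3 libraries for each genotype of either cell type. The sources used here do not say whether the libraries of a group came from separate hearts, so p-values measure the spread between these libraries, which may be technical.

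Between 13883427 and 42505705 read pairs per library were counted on genes, of which 1532393 to 6761356 lay outside the mitochondrial genome. Replicate 2 of WT PCs stood apart, where 63.9% of the pairs did not align (18.8% to 24.7% elsewhere), and values of the connexins without it are given where a call or a rank changed. *Ncam1*, the gene disrupted in the KO, stood at normalized counts of 36.2, 66.3 and 67.0 in PCs of WT mice and at most at 1.26 in those of KO mice. In VMs it reached at most 6.66 in WT and was 0 in all 3 KO libraries. *Cntn2*, whose reporter defined the sort, had 237, 451 and 533 normalized counts in WT PCs and at most 8.99 in any VM library. In KO PCs it had 38.7, 49.2 and 452, so that replicates 1 and 2 labelled KO PC lay below every WT PC library for the gene of their own sort. Throughout, a normalized count is a count scaled by edgeR's TMM method to a library of average size, and log2 fold changes come from edgeR's quasi-likelihood (QL) fit, with p-values adjusted by Benjamini and Hochberg's (BH) method over all genes of a comparison.

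*Gja5* (ENSMUSG00000057123) lies on chromosome 3 of GRCm38 from 96904693 to 97077416, on the plus strand. Its principal transcript of 3109 bases starts at 97032416 and ends at 97053634, with the whole coding sequence of 1074 bases in its last exon. A longer, alternative transcript starts upstream, where 165 of the exon bases of *Gja5* (2.87%) overlap *Gpr89* on the opposite strand, a gene with 19 to 172 counts per library. Whether counting used the strand is not given in the sources used here, so the reads of that stretch cannot be assigned with certainty. None of it belongs to the principal transcript, nor do the 760 words of 50 bases (13.2% of all such words of *Gja5*) that also occur in transcripts of *Zfp697*, which had 0 to 88 counts. The 250 bases before the RefSeq starts of *Gja5* and *Gja1* are shown because this pair is the one most used to tell conduction tissue from working myocardium. Both strands were searched for 4 short motifs of factor families known in the heart, and matches are in capitals. The T-box core was taken as GGTGT, the letters that TBX3 and TBX5 share in their sites. The core of the NK2 family, to which NKX2-5 belongs, was searched as AAGTG. For ETS factors such as ETV1 the letters were CGGAAG. A site of the GATA family was written as AGATAA. The windows come from RefSeq on GRCm38.p6, chr3:97032152-97032401 for *Gja5* and chr10:56377050-56377299 for *Gja1*, both on the plus strand. The *Gja1* window lies before the gene's start at 56377330, whereas its principal transcript in GENCODE M21 starts further downstream, at 56379088.
Gja5: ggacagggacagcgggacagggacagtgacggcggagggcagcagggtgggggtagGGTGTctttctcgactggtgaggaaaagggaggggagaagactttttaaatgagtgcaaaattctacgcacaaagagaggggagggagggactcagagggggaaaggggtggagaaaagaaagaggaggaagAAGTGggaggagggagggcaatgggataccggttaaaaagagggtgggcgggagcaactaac
Gja1: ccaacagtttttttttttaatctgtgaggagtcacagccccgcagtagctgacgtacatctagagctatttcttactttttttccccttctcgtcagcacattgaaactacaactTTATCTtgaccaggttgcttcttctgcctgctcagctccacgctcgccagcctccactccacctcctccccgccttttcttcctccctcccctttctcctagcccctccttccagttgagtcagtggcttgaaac

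The *Gja5* window held 1 T-box core, at position -194 from the start, and 1 NK2 core, at position -62, and had no ETS core or GATA site. The *Gja1* window held 1 GATA site, read on the minus strand at position -135, and none of the other 3 motifs. Such short motifs are common, since the T-box core occurs in 36.2% of 32851 windows of this length before RefSeq starts, the NK2 core in 40.7%, the ETS core in 13.6% and the GATA site in 9.99%. Matches of different motifs did not overlap in these windows. RefSeq windows were found for *Gja1*, *Gja3*, *Gja4* and *Gja5*, 4 of the 6 genes.

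Connexins resemble each other in their coding sequence, and the reads were 50 bases long, so identical stretches between members were measured. The coding sequences of *Gja1* and *Gja5* shared a run of at most 17 bases. Windows of 48 coding bases around this run are shown because they bear on whether reads of *Gja5* could come from the abundant *Gja1*, with the identical run in capitals. They lie on GRCm38 at chr10:56387716-56387763 for *Gja1* and chr3:97050798-97050845 for *Gja5*, both on the plus strand.
Gja1: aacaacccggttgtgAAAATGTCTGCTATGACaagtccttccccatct
Gja5: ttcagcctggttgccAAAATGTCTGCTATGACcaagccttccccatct

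No 50-base word of a member transcript occurred in the transcripts of another member, so no read of that length matching a connexin transcript in full could have come from another of the 6.

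*Gja5* encodes Cx40, the large-conductance connexin of atria, conduction system and arterial endothelium. Its normalized counts were 51.9, 44.9 and 85.0 in the 3 WT PC libraries. In KO PCs they were 22.9, 5.05 and 92.2. The WT VM libraries had 4.69, 1.88 and 8.14, and those of KO VMs 2.83, 1.28 and 4.63. All 3 WT PC libraries stood above all WT VM libraries, and the KO PC libraries stood above all KO VM libraries, but replicate 2 of KO PCs lay within the range of WT VMs. The same separation, with PCs higher, was found for 7.29% of the genes tested in WT and 8.66% of those in KO. The raw counts behind these values were 119, 23 and 147 in WT PCs and 13, 4 and 138 in KO PCs, against 1 to 11 in the 6 VM libraries, so that the VM levels are imprecise.

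Over both genotypes *Gja5* was 12.6-fold higher in PCs than in VMs. On the log2 scale this was 3.65 (standard error 0.588, 95% interval 2.41 to 4.90), and the adjusted p was 0.00417 (edgeR QL test). It ranked 31 among the 11323 genes tested there by p, and was the 1 connexin of 4 tested that passed, where 1.28% of all genes did. The call held in all 19 alternatives, whose log2 fold changes ran from 3.07 to 3.96, and without replicate 2 of WT PCs the value was 3.75 (adjusted p = 2.46e-04, edgeR QL test). Within WT the log2 fold change was 3.55 (standard error 0.613), and the gene did not pass (adjusted p = 0.154, edgeR QL test). It passed there without replicate 2 of WT PCs, at 3.71 (adjusted p = 0.00189, edgeR QL test), and without any other single library it ran from 3.19 to 4.16 and did not pass. Within KO it was 3.77 (standard error 0.883, adjusted p = 0.0617, edgeR QL test), and without replicate 2 of KO PCs it was 4.27 (adjusted p = 0.0182, edgeR QL test). Without replicate 3 of KO PCs it was 2.11 (adjusted p = 0.491, edgeR QL test), and with limma voom and all libraries 2.68 (adjusted p = 0.435). Adjusted p-values under 0.05 were reached by 0.11% of the genes tested in WT and 0.872% of those in KO, and by 0 of the 5 and 4 members tested there in edgeR's QL test. At an unadjusted p under 0.05 the members were *Gja5* in WT, where 6.36% of all genes had one, and *Gja5* and *Gja1* in KO, where 9.7% had one. After adjustment DESeq2 called *Gja5* in both genotypes, with 0.981% of all genes in WT and 1.24% in KO, and limma voom called it in WT, with 1.1%.

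**Figure D1:**
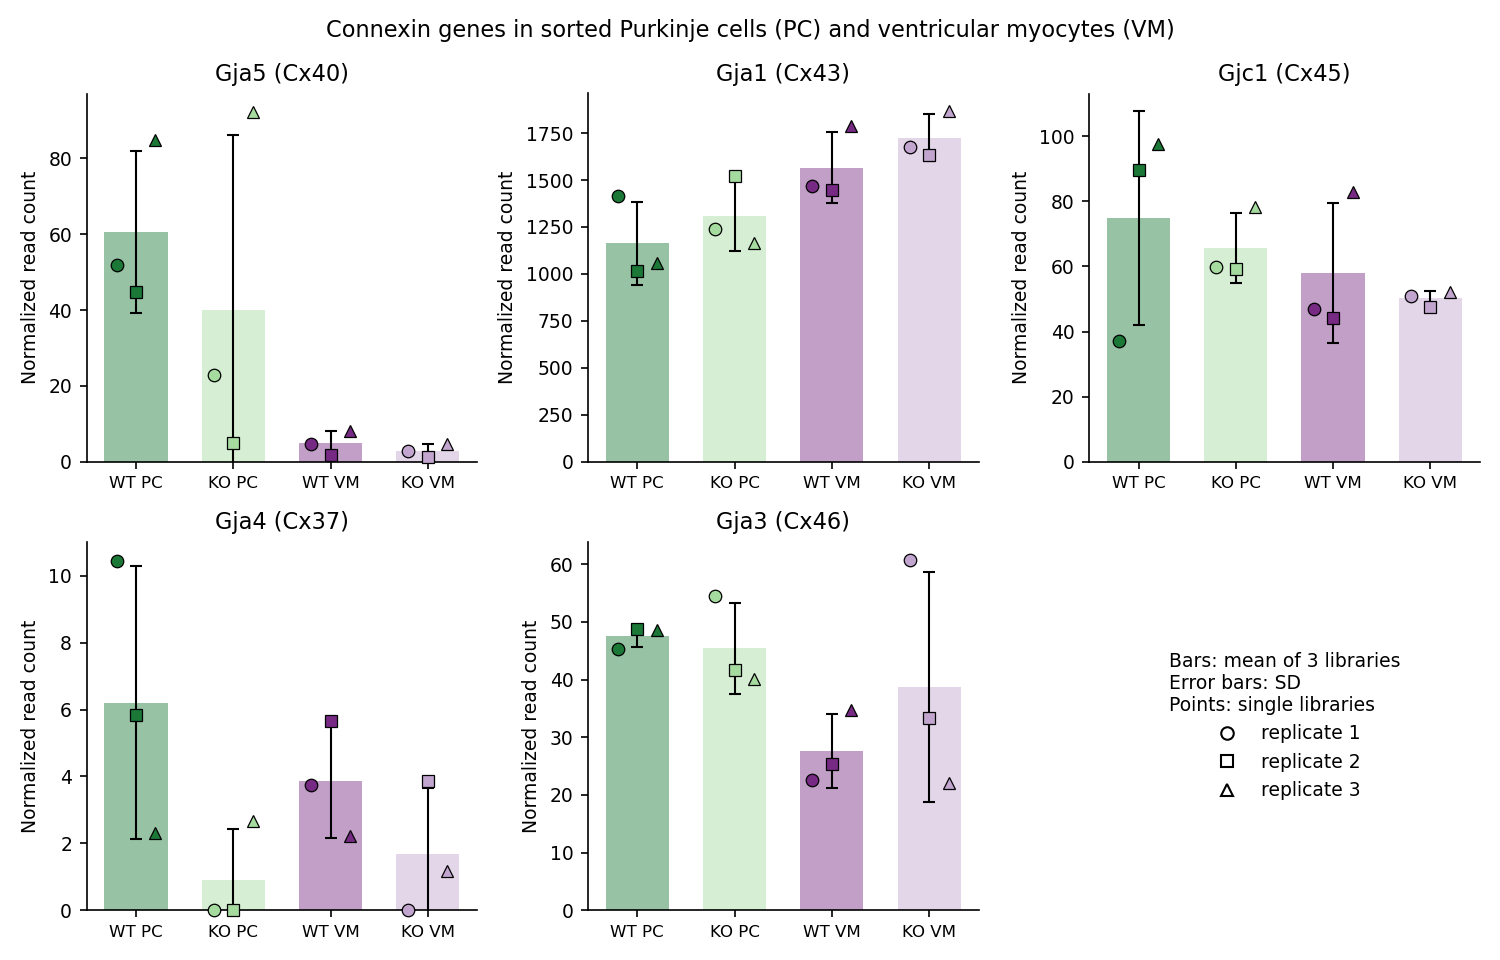
Normalized read counts of the 5 detected connexin genes (y axis of each panel) in WT PC, KO PC, WT VM and KO VM libraries, with bars for the mean of 3 libraries, error bars for the SD and points for single libraries. *Gja5* stands between 44.9 and 85.0 in WT PCs and at or below 8.14 in VMs, and the KO PC libraries spread from 5.05 to 92.2.

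Other cell types moved with this difference, and their part in it was not tested. The summed normalized counts of 12 endothelial markers ran from 698 to 2185 in PC libraries and from 122 to 722 in VM libraries, and 10 of the 11 tested had an unadjusted p under 0.05 in edgeR's test over both genotypes, all higher in PCs, 3 of them after adjustment. Of all genes in that test, 8.72% were higher in PCs at an unadjusted p under 0.05, and 1.28% passed in either direction after adjustment. Of 7 arterial endothelial markers, 4 were tested and 3 had an unadjusted p under 0.05, with sums of 13.7 to 169 in PCs and 14.1 to 54.4 in VMs. In replicates 1 to 3 the endothelial sums were 1168, 893 and 1005 in WT PCs and 2185, 1049 and 698 in KO PCs. The arterial sums were 96.3, 13.7 and 79.2 in WT PCs, while KO PCs had 169, 92.2 and 42.8. Atrial myocyte markers, 5 in number, summed to 79.1 to 995 in PCs and 33.6 to 331 in VMs. Of these 5, 2 were higher in PCs at an unadjusted p under 0.05 (edgeR QL test) and 0 after adjustment. Normalized counts of *Bmp10* lay mainly in replicate 1 of WT PCs (61.5) and of WT VMs (49.7). In the other libraries they were at most 1.28, with 0 in every KO PC library. Replicates 1 to 3 of WT PCs had atrial sums of 432, 995 and 238, while KO PCs had 79.1, 213 and 554. Fibroblast markers summed to 676 to 1703 in PCs and 66.5 to 403 in VMs, with 4 of 7 tested higher after adjustment in edgeR's QL test. Leukocyte markers (268 to 696 against 15.6 to 146) had 2 of 5, and smooth muscle and pericyte markers (1011 to 2492 against 253 to 986) 1 of 8. Cardiomyocyte markers summed to 216182 to 274896 in all 12 libraries, and 4 of 5 glial and neuronal markers were at 0 throughout.

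Purkinje markers are given beside *Gja5* because the sort selects for them. The summed normalized counts of 8 such markers, *Cntn2* among them, were 774, 1925 and 2604 in WT PCs, 306, 327 and 1288 in KO PCs, and 82.8 to 176 in VMs. Over both genotypes 5 of the 8 were higher in PCs after adjustment, where 1.28% of all genes tested passed in either direction. In KO PCs the Purkinje sum, the atrial sum and *Gja5* all had their highest value in replicate 3. In WT PCs the Purkinje sum and *Gja5* were highest in replicate 3, where the atrial sum was lowest. The genes whose pattern over the 12 libraries was most like that of *Gja5*, by Pearson's r of log2(normalized count + 2) among 7815 protein-coding genes with a mean above 20, were *Etv1* (r = 0.944), *Atp1b2* (r = 0.943) and *Sbk3* (r = 0.932). Without replicate 2 of WT PCs they held ranks 1, 2 and 3, and among the 6 PC libraries alone r was 0.854, 0.942 and 0.920. *Etv1*, a transcription factor of the ETS family, had 156, 429 and 453 normalized counts in WT PCs. KO PCs had 105, 55.6 and 258 and VMs 19.7 to 33.8. These points share the difference between the sorted cell types and each library's depth, and r is given as a description.

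**Figure D2:**
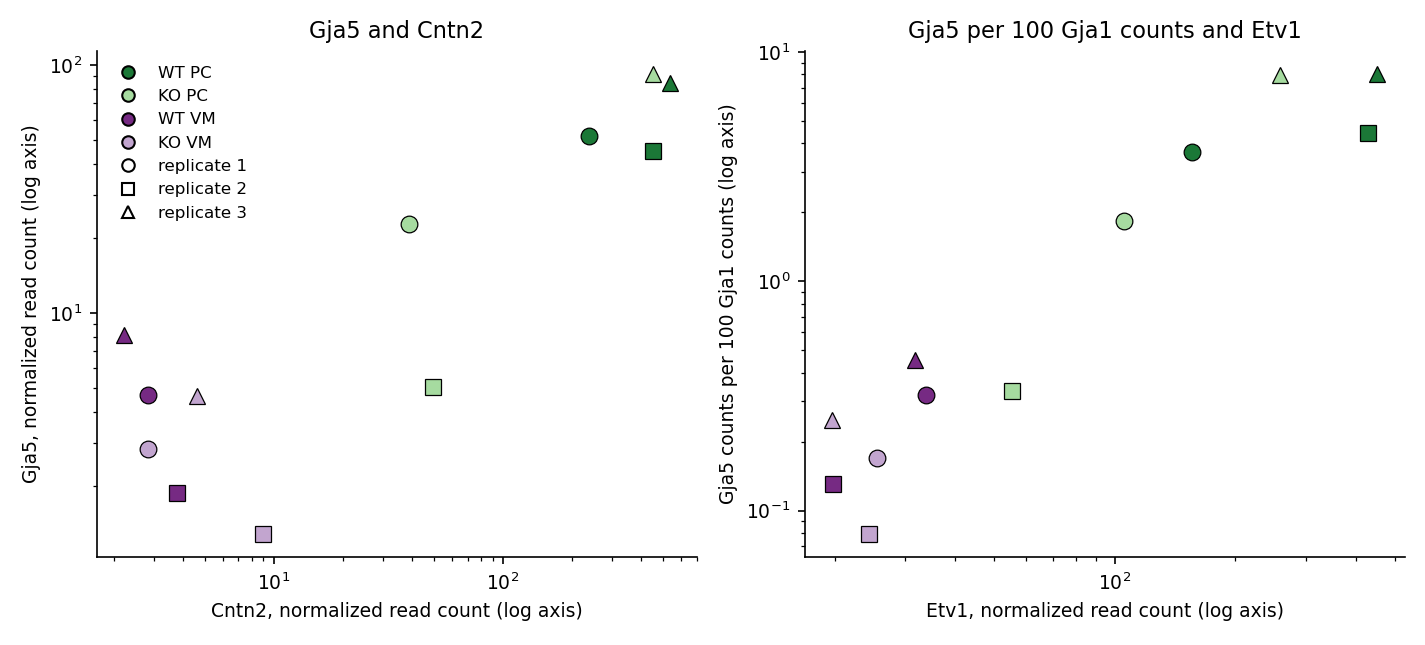
Left, normalized read count of *Gja5* against that of *Cntn2*, and right, *Gja5* counts per 100 *Gja1* counts against the normalized count of *Etv1*, both on log axes, with 1 point for each of the 12 libraries coloured by group and shaped by replicate number. Replicate 3 of KO PCs lies among the WT PC libraries, and replicate 2 of KO PCs has 5.05 normalized counts of *Gja5* and 49.2 of *Cntn2*.

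In bulk libraries fewer cells of a type and less RNA per cell cannot be told apart, and this applies to the KO PC libraries in particular. *Gja5* was -0.55 on the log2 scale in KO against WT PCs (standard error 0.791, 95% interval -2.31 to 1.21, adjusted p = 0.993, edgeR QL test), and the genotypes overlapped because replicate 3 of KO PCs exceeded every WT library. Without that library the log2 fold change was the lowest of the 6 fits that each left out a library, -2.21, and the highest was -0.05. Since its mean normalized count in VMs was under 5, *Gja5* was fitted there without the filter on low counts, at -0.74 (standard error 0.988). Between PCs and VMs the genotype effects on *Gja5* differed by 0.19 (standard error 1.15, 95% interval -2.25 to 2.62), a value that was -1.29 with limma voom.

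*Gja1* (ENSMUSG00000050953) encodes Cx43, the main gap junction protein of working myocardium, and lies on chromosome 10 from 56377330 to 56402513 on the plus strand. Its principal transcript has 3182 bases in 2 exons, with the coding sequence of 1146 bases in the second. Normalized counts were 1415, 1014 and 1056 in WT PCs, while KO PCs had 1241, 1523 and 1166. WT VMs had 1468, 1446 and 1786, and KO VMs 1676, 1631 and 1867. Within each genotype all PC libraries lay below all VM libraries, while across genotypes replicate 2 of KO PCs exceeded replicates 1 and 2 of WT VMs. Means were 1236 ± 200 in PCs and 1646 ± 168 in VMs (SD, n = 6).

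The log2 fold change of *Gja1* between PCs and VMs over both genotypes was -0.41 (standard error 0.123, 95% interval -0.67 to -0.15). The unadjusted p was 0.00384 and the adjusted p 0.122 in edgeR's QL test, and the adjusted p ran from 0.0224 to 0.324 over the alternatives. It was under 0.05 with DESeq2 (0.0362), with limma voom and sample quality weights (0.0224) and with edgeR without replicate 1 of WT PCs (0.0490). Within WT the log2 fold change was -0.46 (standard error 0.219) and within KO -0.40 (standard error 0.140), with adjusted p-values of 0.798 and 0.279 from edgeR's QL test. Libraries that did not overlap and were lower in PCs are no rarity in these data, at 6.56% of the genes tested in WT and 6.92% of those in KO.

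Counted against *Gja1* in the same library, *Gja5* needs no scaling between libraries. For each 100 counts of *Gja1*, the WT PC libraries had 3.66, 4.42 and 8.04 counts of *Gja5*. The KO PC libraries had 1.84, 0.332 and 7.91. WT VMs had 0.319, 0.130 and 0.455 and KO VMs 0.169, 0.0787 and 0.248. Every PC library thus exceeded every VM library of its genotype, and replicate 2 of KO PCs, at 0.332, lay below replicate 3 of WT VMs. On the scale of log2((*Gja5* count + 0.5)/(*Gja1* count + 0.5)), the mean was -5.05 ± 1.67 in PCs and -8.71 ± 0.738 in VMs (SD, n = 6), a difference of 3.66 or 12.6-fold. An exact permutation test, two-sided, over the 400 relabellings within genotypes gave p = 0.005, the smallest it can give. Within WT the difference was 4.09 and within KO 3.22, each with an exact permutation p of 0.1, the smallest that 3 libraries against 3 allow. KO PCs differed from WT PCs by -1.52, with groups that overlapped (exact permutation test, two-sided, p = 0.3), and KO VMs from WT VMs by -0.66 (exact permutation test, two-sided, p = 0.4). After BH adjustment over these 5 comparisons the smallest of these p-values was 0.025, that of PCs against VMs over both genotypes.

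The genotype comparisons of *Gja1* itself gave small differences with overlapping libraries. In PCs the log2 fold change of KO over WT was 0.17 (standard error 0.234, 95% interval -0.35 to 0.69). The difference in VMs was 0.13 (95% interval -0.16 to 0.42). Over both cell types it was 0.15 (95% interval -0.10 to 0.41). The genes most like *Gja1* in pattern over the 12 libraries were *Aldh6a1* (r = 0.942), a mitochondrial dehydrogenase, *Hadhb* (r = 0.938), a subunit of the mitochondrial trifunctional protein of fatty acid oxidation, and *Mbtps2* (r = 0.936). Without replicate 2 of WT PCs *Mbtps2* ranked 1, *Aldh6a1* 3 and *Hadhb* 8.

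*Gjc1* (ENSMUSG00000034520) encodes Cx45, the connexin of the earliest cardiomyocytes, kept at low level in the adult conduction system. It lies on chromosome 11 from 102799579 to 102819700 on the minus strand, and its principal transcript has 2314 bases. Normalized counts were 37.1, 89.7 and 97.7 in WT PCs, while KO PCs had 59.8, 59.3 and 78.2. WT VMs had 46.9, 44.2 and 82.8, and KO VMs 50.9, 47.5 and 52.1. The lowest of all 12 values was in a WT PC library, replicate 1, and the WT groups overlapped, whereas the KO PC libraries all stood above the KO VM libraries. Groups apart with PCs higher were found for 8.66% of the genes tested in KO. The log2 fold change between PCs and VMs was 0.32 in WT (standard error 0.467), 0.40 in KO (standard error 0.281) and 0.37 over both genotypes (standard error 0.260, 95% interval -0.18 to 0.92, adjusted p = 0.645, edgeR QL test). Between genotypes it was -0.16 in PCs (95% interval -1.17 to 0.84) and -0.23 in VMs (95% interval -0.83 to 0.37), and either sign turned to positive when replicate 3 of the WT group was left out. The genes most like it were *Dhx36* (r = 0.888), *Zfc3h1* (r = 0.855) and *Spg21* (r = 0.848), which held ranks 4, 2 and 1 without replicate 2 of WT PCs.

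**Figure D3:**
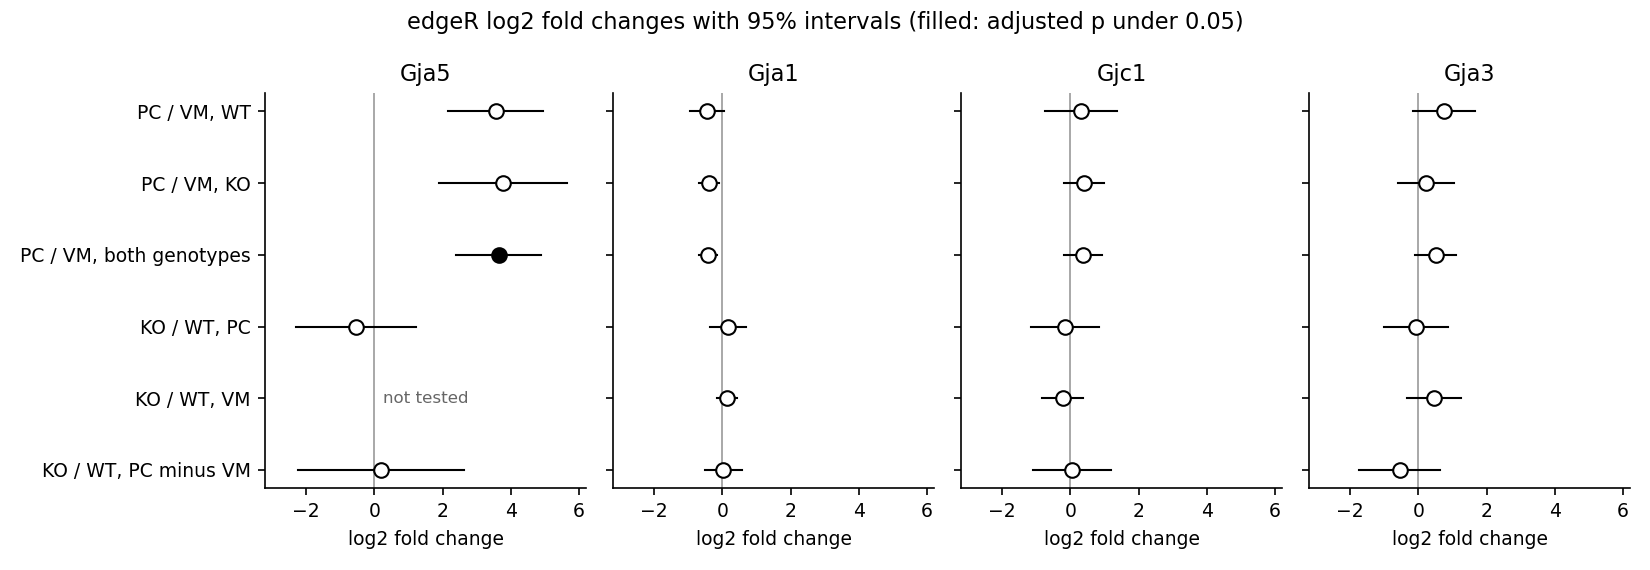
edgeR log2 fold changes (x axis) of *Gja5*, *Gja1*, *Gjc1* and *Gja3* in 6 comparisons (y axis), with bars for 95% intervals and filled points for an adjusted p under 0.05. The *Gja5* difference between PCs and VMs over both genotypes, 3.65, is the filled point, and the intervals of all genotype comparisons include 0.

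*Gja3* (ENSMUSG00000048582) encodes Cx46, best known from the fibre cells of the eye lens, and lies on chromosome 14 from 57034460 to 57058100 on the minus strand. Normalized counts were 45.3, 48.8 and 48.5 in WT PCs and 22.5, 25.4 and 34.8 in WT VMs. In KO PCs they were 54.5, 41.7 and 40.1, and in KO VMs 60.8, 33.4 and 22.0. WT PCs stood above WT VMs without overlap, where 7.29% of the genes tested in WT did the same, and the KO groups overlapped because replicate 1 of KO VMs had the highest value of all 12 libraries. The log2 fold change between PCs and VMs was 0.75 in WT (standard error 0.401, adjusted p = 0.804, edgeR QL test), 0.23 in KO (standard error 0.390) and 0.51 over both (standard error 0.279, 95% interval -0.08 to 1.10). KO VMs were 0.45 above WT VMs (standard error 0.376, adjusted p = 0.973, edgeR QL test), and -0.02 without replicate 1 of KO VMs. In PCs the genotype difference was -0.07 (standard error 0.417). The gene most like *Gja3* in pattern was *Exosc4* (r = 0.958), a subunit of the RNA exosome, followed by *Dpp3* (r = 0.843) and *Cd47* (r = 0.835). Without replicate 2 of WT PCs *Exosc4* ranked 1, *Dpp3* 11 and *Cd47* 12.

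*Gja4* (ENSMUSG00000050234) encodes Cx37, a connexin of vascular endothelium, and lies on chromosome 4 from 127311421 to 127314039 on the minus strand. It was near the limit of detection, with raw counts of 24, 3 and 4 in WT PCs, 0, 0 and 4 in KO PCs, 4, 6 and 3 in WT VMs and 0, 3 and 1 in KO VMs. The highest normalized count, 10.5, was that of replicate 1 of WT PCs. In edgeR it passed the filter on low counts only between WT PCs and WT VMs, where the log2 fold change was 0.67 (standard error 0.914, 95% interval -1.39 to 2.73). Replicate 1 of KO PCs, with the highest endothelial marker sum of all libraries, had 0 counts of *Gja4*, which allows up to 5.27 normalized counts.

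*Gjd3* (ENSMUSG00000047197), on chromosome 11 from 98982180 to 98983016 on the minus strand, had 0 counts in all 12 libraries. In GENCODE M21 it is a single exon of 837 bases that holds the coding sequence alone. The counts were made with release 74, whose model of the gene was not examined here. Whether reads from untranslated parts of its mRNA could be counted on it is therefore not known. A count of 0 allows up to 3 counts, or 1.31 to 5.85 normalized counts per library, counting error only. Per kilobase of transcript that limit was 7.58% to 48.4% of the level of *Gja5* in WT PCs and 8.07%, 85.7% and 279% of it in KO PCs. In all 6 VM libraries the limit exceeded the level of *Gja5*, so that a level like that of *Gja5* was not detectable there.

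Levels of different genes were compared as normalized counts per kilobase of the longest principal transcript. In WT PCs *Gja1* stood at 365 ± 69.3, followed by *Gjc1* at 32.3 ± 14.2, *Gja5* at 19.5 ± 6.89, *Gja3* at 17.2 ± 0.694 and *Gja4* at 3.68 ± 2.43 (SD, n = 3). The first step of this order was 11.3-fold with no overlap, while *Gjc1*, *Gja5* and *Gja3* did not differ beyond their spread. In KO PCs the order was *Gja1* at 412, *Gjc1* at 28.4, *Gja3* at 16.4, *Gja5* at 12.9 and *Gja4* at 0.529. There *Gja5*, from 1.62 to 29.7, overlapped both *Gja3* and *Gjc1* (25.6 to 33.8). In WT VMs *Gja1* at 492 was followed by *Gjc1* at 25.1, *Gja3* at 9.96, *Gja4* at 2.30 and *Gja5* at 1.58, and in KO VMs the order was the same, from 542 for *Gja1* to 0.937 for *Gja5*. The last 2 genes of the VM order overlapped in both genotypes, and in KO VMs *Gjc1* and *Gja3* overlapped as well. With the length of all exons of a gene in place of the principal transcript, *Gja1* remained first in every group, but *Gja3* moved to second in WT PCs, KO PCs and KO VMs.

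*Gja1* thus held the greatest part of the summed connexin level in every library, at 79.0% to 91.9% in PCs and 91.5% to 94.7% in VMs. *Gja5* held 3.34% to 6.50% in WT PCs, 0.312% to 6.65% in KO PCs and 0.0754% to 0.426% in VMs. *Gjc1* held 3.20% to 10.0% in PCs and 3.63% to 5.83% in VMs. These shares are of transcripts and depend on the lengths used.

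**Figure D4:**
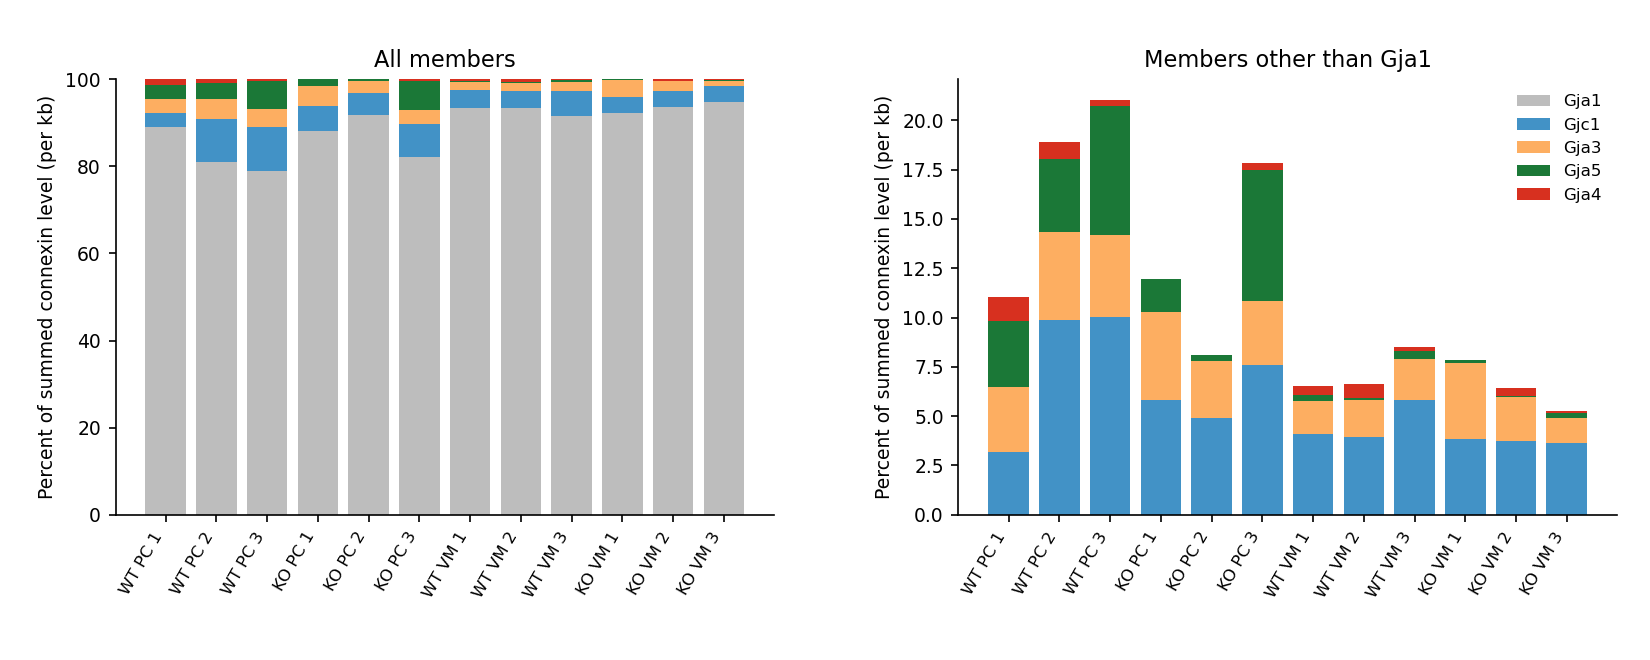
Share of each connexin in the summed connexin level per kilobase (y axis, percent) in the 12 libraries (x axis), with all members on the left and those other than *Gja1* on the right, on a scale of its own. *Gja1* holds 79.0% or more in every library, and *Gja5* holds 3.34% or more in the WT PC libraries and replicate 3 of KO PCs.

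Of 14 other connexin genes listed, among them the *Gjb* genes of epithelia and liver, none reached a mean normalized count of 5 in any comparison. *Gja6* alone had counts, with at most 1.16 normalized counts, in 3 VM libraries. Of the 3 pannexins, which form channels related to connexins in shape, *Panx1* had 31.2 normalized counts in replicate 2 of WT PCs and at most 3.52 elsewhere, *Panx2* at most 5.35, and *Panx3* was at 0.

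Proteins that bind connexins, anchor them at the intercalated disc or govern their turnover were listed as 16 genes, of which 13 were tested between PCs and VMs over both genotypes. None had an adjusted p under 0.05 in any of the 7 comparisons with edgeR's QL test, DESeq2 or limma voom. Over both genotypes 2 of the 13 had an unadjusted p under 0.05, among them *Cdh2* (N-cadherin) at -0.25, where 11.7% of all genes tested had one. The median log2 fold change of the 13 was -0.06, against 0.02 over all genes tested. *Tjp1*, the ZO protein that binds Cx43, is named after its values were seen, with 486 to 699 normalized counts in all 12 libraries. Between KO and WT PCs, *Cav3* of the caveolae had -0.88 (standard error 0.313, adjusted p = 0.993, edgeR QL test), with 155, 185 and 127 normalized counts in WT and 102, 77.0 and 74.2 in KO, the 1 gene of 14 tested with an unadjusted p under 0.05, where 3.22% of all genes had one. Over both cell types 4 of 13 tested had an unadjusted p under 0.05 for genotype, among them *Cdh2* (0.25), *Cnst* (0.39) and *Cav3* (-0.47), where 5.03% of all genes had one.

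Of 14 transcription factors known to act on connexin genes in heart or vessels, 12 were tested between PCs and VMs. *Etv1* was higher in PCs in WT (3.56, standard error 0.459, adjusted p = 0.0316), in KO (2.63, standard error 0.455, adjusted p = 0.0140) and over both genotypes (3.14, standard error 0.385, adjusted p = 6.48e-04, edgeR QL test throughout), and no other factor of the list passed in these fits. Without the filter on low counts edgeR called 3 of 14 in WT, 3 of 14 in KO and 4 of 14 over both genotypes, where it called 1.36%, 1.61% and 2.53% of all genes. Over both genotypes DESeq2 called 4 of the 12 and limma voom 5, where they called 4.04% and 3.98% of all genes. Over both genotypes 5 of the 12 were higher and 1 lower at an unadjusted p under 0.05, against 8.72% and 2.95% of all genes tested, and the median was 0.62. *Nkx2-5*, named after its values were seen, had 21.1 to 47.5 normalized counts in PCs and 24.3 to 33.9 in VMs. Between KO and WT PCs, 2 of 13 factors had an unadjusted p under 0.05 in edgeR's QL test, where 3.22% of all genes had one. None had an adjusted p under 0.05 there, and 0% of all genes did. Without the filter on low counts 1 of 14 factors had an adjusted one, as did 0.611% of all genes. Those with an unadjusted p under 0.05 were *Hopx*, at -0.78 with 1819, 3000 and 1656 normalized counts in WT and 1021, 1410 and 1302 in KO, and *Etv1*, at -1.27 with overlapping libraries.

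Across the genotype comparisons, none of the 4 or fewer members tested in each had an adjusted or an unadjusted p under 0.05 in edgeR's QL test, where the share of all genes with an adjusted one was 0% in PCs, 0.0373% in VMs and 0.0353% over both cell types, and that with an unadjusted one 3.22%, 5.12% and 5.03%. For the difference of genotype effects these shares were 0% and 2.9%, again with no member. DESeq2 and limma voom also gave no member an adjusted p under 0.05 there. The effects of genotype in PCs and VMs differed by 0.03 for *Gja1* (95% interval -0.51 to 0.57), 0.05 for *Gjc1* (95% interval -1.09 to 1.20) and -0.55 for *Gja3* (95% interval -1.74 to 0.64).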

How the data were processed

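Groups and replicate numbers followed the sample titles. The authors deposited raw counts of read pairs per gene for each library, made with STAR 2.5.0c and HTSeq 0.6.0 on mm10 with the GRCm38 annotation, release 74, without normalization. Pairs that HTSeq gave to no gene (40.0% to 73.6% of pairs) were left out of library sizes and tests. Positions, transcripts and overlaps came from GENCODE M21 on GRCm38.

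Counts were normalized by TMM in edgeR 4.0.16 (R 4.3.3). In each comparison a gene entered when its normalized counts averaged above 5, and the quasi-likelihood (QL) test was used, with p-values adjusted by Benjamini and Hochberg's method over every gene that entered and a threshold of 0.05. Comparisons of 2 groups took their 6 libraries, the others all 12. Alternatives were DESeq2 1.42.0, its size factors in edgeR, filterByExpr, no filter, limma 3.58.1 voom with sample quality weights, omission of mitochondrial genes, a replicate block, 1 fit of all libraries, and each library left out in turn. The length of all exons as a divisor was added after seeing the data. The ratio of *Gja5* to *Gja1* used a pseudocount of 0.5 (alternative 2). Tests were tried on simulated data. The authors' own comparisons and coverage tracks were not used here.

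Named genes were the 6 members, at most 5 genes of each list and comparison (adjusted p under 0.05, otherwise unadjusted), the 3 most alike in pattern, overlapping genes, *Ncam1* and *Cntn2*, and exceptions are marked. Some items that this rule names are not reported here. Members and lists were chosen with earlier results of these data known.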

Additional observations from a re-analysis of the deposited data

How the results depend on the processing

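Of the connexins tested between WT PCs and WT VMs, 0 passed in edgeR's QL test and 1, *Gja5*, with DESeq2, with no filter on low counts and with limma voom (log2 fold changes 3.61, 3.55 and 3.87). Of all genes, 0.11% passed in edgeR's QL test and 0.981%, 1.36% and 1.1% in those other settings. Between KO PCs and KO VMs 0 passed, and 1, again *Gja5*, with DESeq2, with no filter and with the replicate block (3.79, 3.77 and 3.54). Of all genes, 0.872% passed in edgeR's QL test, 1.24% with DESeq2 and 1.61% with no filter. The replicate block called 121 of 10779 genes. With filterByExpr *Gja5* did not enter the KO comparison and was not tested. Over both genotypes 1 passed, and 2, *Gja5* and *Gja1*, with DESeq2 and limma voom. The share of all genes that passed was 1.28% in edgeR's QL test, 4.04% with DESeq2 and 3.98% with limma voom. Leaving out 1 library at a time gave 0 to 1, 0 to 1 and 1 to 2 members in these comparisons. Of all genes, these fits called 1 to 108 in WT, 19 to 150 in KO and 69 to 404 over both genotypes. *Gja5* was called in WT without replicate 2 of WT PCs, with 108 of 12139 genes. In KO it was called without replicate 2 of KO PCs, with 46 of 10782. *Gja1* joined it over both genotypes without replicate 1 of WT PCs, with 162 of 11131. Without 1 library the log2 fold change of *Gja3* ran from -0.062 to 0.68 between KO PCs and KO VMs, from -0.020 to 0.76 between KO and WT VMs, and from -0.055 to 0.30 for genotype over both cell types. That of *Gjc1* ran from -0.52 to 0.10 for genotype in PCs and from -0.37 to 0.14 in VMs. The difference of genotype effects ran from -0.090 to 0.20 for *Gja1*, -1.45 to 0.71 for *Gja5* and -0.30 to 0.33 for *Gjc1*, and for *Gja5* was -1.29 with limma voom and -0.16 with the replicate block. The causes were not tested.

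Libraries with the same replicate number correlated at 0.207, 0.0813 and 0.150 between WT PCs and WT VMs and at -0.00956, 0.121 and 0.0185 between KO PCs and KO VMs (across 8100 genes, after centring each group). Their means were 0.146 in WT and 0.0433 in KO, and those for libraries of different numbers were -0.0737 and -0.0214. Centring each group nearly fixes the latter from the former, with opposite sign, so they are no separate comparison. The sources used here do not say whether equal numbers share a heart, so the main fits had no replicate block. Whether these libraries are paired was not tested. The replicate block changed no other member's call. The ratio of *Gja5* to *Gja1* kept its direction in every alternative, and between PCs and VMs over both genotypes it also kept its side of the threshold. In the comparisons of 3 libraries against 3, within a genotype or within a cell type, no p under 0.05 is possible. Their side of the threshold was therefore fixed in advance. Depth limits *Gja4*, *Gjd3* and the VM levels of *Gja5*.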

Other observations

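*Hopx*, an atypical homeodomain factor that acts in the conduction system, was picked for the smallest unadjusted p of the listed transcription factors for the difference of genotype effects between cell types, -1.10 (standard error 0.298, adjusted p = 0.999, edgeR QL test), where 2.9% of all genes tested had an unadjusted p under 0.05. Its normalized counts in VMs were 903, 923 and 927 in WT and 1136, 1070 and 1205 in KO. Between KO and WT VMs its log2 fold change was 0.30 (adjusted p = 0.931, edgeR QL test). *Irx3*, a homeodomain factor of the Purkinje system, had 10.3, 12.2 and 17.0 normalized counts in WT VMs and 24.0, 19.3 and 35.9 in KO VMs, a log2 fold change of 0.98 with the same adjusted p. In PCs it had 8.28, 25.4 and 22.0 in WT and 24.6, 22.7 and 16.7 in KO, so PCs did not stand above VMs. *Hopx* and *Irx3* were the 2 of 12 listed factors with an unadjusted p under 0.05 between KO and WT VMs (edgeR QL test). Of all genes tested there, 5.12% had one.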
